A study of Rattus norvegicus with 8 samples.

Results

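The blood vessels of the brain were followed through 32 genes in RNA-seq libraries of rat hippocampus and hypothalamus. The genes were taken by symbol and fall into 16 genes of endothelial cells, 12 of mural cells (pericytes and smooth muscle cells) and 4 that encode ligands passing between the cells of a vessel. Of the 32 genes, 28 were in both deposited tables, which share 15892 symbols in all. Egfl7 and Myh11 were read from the hypothalamus table alone, and Slco1a4 and Abcb1a are not analysed here. Each tissue had 4 libraries, numbered as replicates 1 to 4. All came from male Sprague Dawley rats whose feeding started at an age of 2 months and lasted 6 weeks, on an omega-3 diet containing docosahexaenoic acid (DHA) and with 15% fructose in the water they drank. Because both tissues carry the same diet, the comparison is between brain regions and says nothing of fructose or DHA. The labels do not tell whether the 4 libraries of a tissue come from separate rats, so the spread between them may be partly technical.

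Endothelial cells line every brain vessel and, through tight junctions and transporters, form the blood-brain barrier. Pericytes sit on capillaries and smooth muscle cells wrap arterioles and arteries, where actin, myosin and their regulators set the width of the vessel. The endothelium recruits pericytes by releasing PDGF-B to the receptor PDGFRB, angiopoietins act through the receptor TIE2 (encoded by Tek), and VEGF-A acts through the receptors encoded by Kdr and Flt1.

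Values are FPKM (fragments counted on a transcript, set against its length and the depth of the library), summed over the loci of a symbol and divided by a factor per library so that both tables sit on 1 scale. Differences are means of log2(FPKM + 1) in hypothalamus minus hippocampus with their standard error (n = 4 against 4), a scale on which low genes differ less than their FPKM do. To be called higher or lower in hypothalamus, a gene needed a difference of 1 or more (2-fold) and libraries that lay apart by tissue. Of 10554 genes whose mean reached 1 FPKM, 13.3% were called higher and 13.4% lower, and for 53.4% the libraries of the tissues did not overlap, whatever the size of the difference. With the values as deposited, without the factors, 1912 genes were higher and 1018 lower, in place of 1402 and 1414, and the median difference over all genes moved from -0.04 to 0.18. The tissues were deposited in separate tables that the authors may have normalised apart, so tissue and table cannot be told apart in any difference of level.

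Known genes of each region separated the libraries by their labels, with 5 of 5 hippocampal genes tested lower and 6 of 6 hypothalamic genes higher in hypothalamus. Some libraries stood apart from the rest of their tissue. Replicates 3 and 4 of hippocampus had Ttr, a marker of choroid plexus, at 6638 and 4990 FPKM against 38.7 and 37.5 in replicates 1 and 2. Replicate 1 of hypothalamus held the lowest value of its tissue for 41.4% of all genes and the highest for 39.1%. For replicate 2 of hippocampus these shares were 36.0% and 37.6%. Replicate 1 of both tissues also differed from replicates 2 to 4 in the pattern of its low values, as given under the processing. All 28 vessel genes in both tables passed the filter on low values. In bulk tissue a smaller number of vessel cells and less RNA of a gene in each cell cannot be told apart.

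Most endothelial genes tested were not called, and as a list they had no common direction. Of 13 tested, 3 were lower in hypothalamus (Esam, Cldn5 and Flt1), 1 was higher (Sox18) and 9 were neither, against 13.4% and 13.3% of all genes. The libraries did not overlap for 5 of the 13, against 53.4% of all genes. Their median difference was -0.10, close to the -0.04 of all genes, and became 0.10 with values as deposited. In limma's fit across both tables, an alternative that calls changes of 1 or more by an adjusted p (limit 0.05), 2 endothelial genes were higher and 3 lower, against 13.8% and 13.6% of all genes.

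The endothelial genes lower in hypothalamus included the most abundant of the list in hippocampus. Cldn5, the main claudin of the tight junctions between brain endothelial cells, was at 94.2, 55.0, 68.8 and 92.1 FPKM in hippocampus replicates 1 to 4 and at 37.2, 28.0, 35.0 and 35.0 in hypothalamus. Every hippocampal library lay above every hypothalamic one, and the difference was -1.15 ± 0.20 (means of 77.5 ± 18.9 and 33.8 ± 4.01, SD, n = 4). Esam, an adhesion molecule of endothelial junctions, stood at 42.6, 39.6, 46.8 and 45.4 FPKM in hippocampus and 11.0, 17.1, 20.7 and 16.4 in hypothalamus. It had the most negative difference of the 28 vessel genes, at -1.39 ± 0.19, and the hippocampal mean was 2.67 times the hypothalamic one. The limma adjusted p was 9.5e-05 for Esam and 0.000515 for Cldn5. With values as deposited, where the median of all genes was 0.18, Cldn5 was at -0.92 and no longer called, and Esam was the 1 endothelial gene that stayed lower. Emcn, a sialomucin of the endothelial surface, also had no overlap, with 8.49, 10.3, 14.7 and 8.85 FPKM against 6.00, 8.14, 8.001 and 5.56, but its difference of -0.54 ± 0.21 was under the limit.

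Junction and surface genes of the same cells did not all go that way. Pecam1, an adhesion molecule found along all endothelium, was level in hippocampus at 6.96, 7.73, 6.87 and 7.30 FPKM and spread in hypothalamus over 6.69, 13.8, 16.3 and 14.3. Vwf, which encodes von Willebrand factor of the endothelial storage granules, was at 4.69, 4.75, 5.91 and 8.07 FPKM against 6.66, 15.7, 19.8 and 17.8. For both genes hypothalamus replicate 1 fell within or below the hippocampal range while its other 3 libraries lay above it, so neither was called (0.68 ± 0.27 and 1.15 ± 0.36). Vwf was called higher, at 1.47, without that library, at 1.29 without hippocampus replicate 4, and in limma's fit with all libraries (adjusted p = 0.00722). Eng, a co-receptor for TGF-beta family ligands, showed the same layout, at 13.4, 11.1, 10.4 and 12.04 FPKM against 11.8, 23.3, 25.4 and 18.8 (0.66 ± 0.25). Nos3, the nitric oxide synthase of endothelium, was at 3.14, 3.08, 3.09 and 3.73 FPKM against 2.64, 4.45, 6.06 and 5.24, and was not called.

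Ratios within a library need no factor between tables, though they keep any effect of a table on a single gene. Cldn5 and Esam already lay apart and Pecam1 leaned the other way, so the ratios below restate those values and add no further support. The ratio of Cldn5 to Pecam1 was 13.5, 7.11, 10.01 and 12.6 in hippocampus and 5.57, 2.03, 2.14 and 2.44 in hypothalamus, without overlap. For Esam over Pecam1 the ratios were 6.12, 5.12, 6.82 and 6.22 against 1.65, 1.24, 1.27 and 1.15. Both ratios were higher in every hippocampal library than in any hypothalamic one. The highest hypothalamic ratio in each case belonged to replicate 1.

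**Figure D1:**
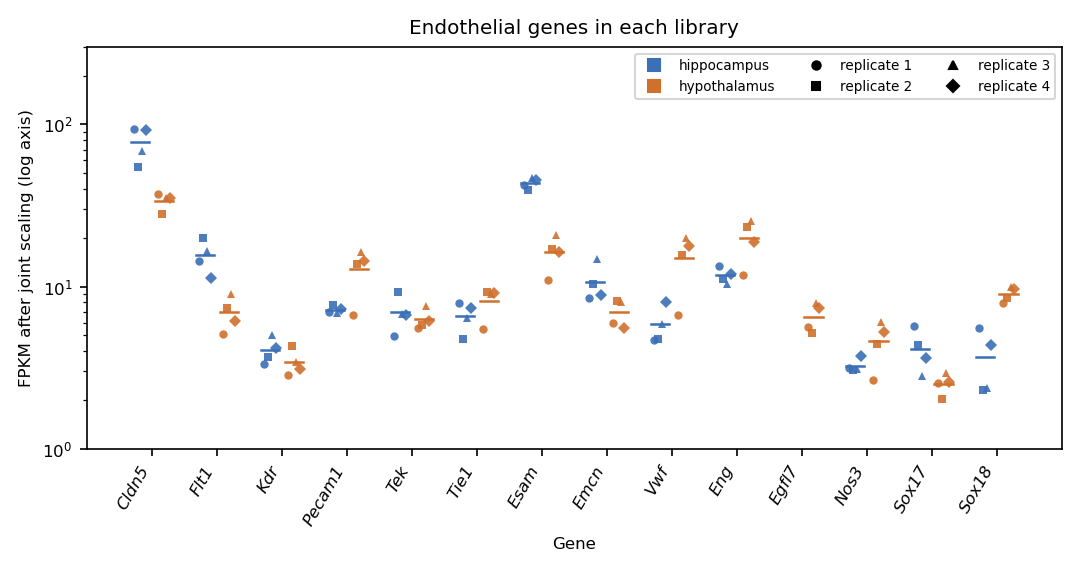
Level of the 14 endothelial genes with a value, in FPKM on a log axis, for each library (points, shape by replicate) with the mean of each tissue (bars). Cldn5, Flt1 and Esam lie apart with hippocampus above, Sox18 lies apart with hypothalamus above, and for Pecam1, Vwf and Eng the circle of hypothalamus replicate 1 sits below the other 3 libraries.

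Receptors of the endothelium mostly did not separate the tissues. Flt1, which encodes VEGF receptor 1, was at 14.4, 19.98, 16.7 and 11.3 FPKM in hippocampus and 5.13, 7.42, 9.01 and 6.16 in hypothalamus, a difference of -1.06 ± 0.22. That value was close to the limit of 1 and was no longer called under 5 alternatives, where it ran from -0.98 to -0.85. Kdr, encoding the main signalling receptor for VEGF-A, overlapped in part, at 3.31, 3.69, 5.02 and 4.19 FPKM against 2.84, 4.28, 3.43 and 3.11. Within a library, Flt1 over Kdr was 4.36, 5.42, 3.32 and 2.70 in hippocampus and 1.81, 1.73, 2.62 and 1.98 in hypothalamus. The lowest hippocampal ratio thus lay just above the highest hypothalamic one. Tek, the angiopoietin receptor, was at 4.96 to 9.26 FPKM in hippocampus and 5.58 to 7.64 in hypothalamus. Tie1, an orphan receptor that pairs with it, was at 4.73 to 7.91 and 5.46 to 9.20, and the ratio of the pair overlapped between the tissues.

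The 2 SOX transcription factors of the list, which act in endothelial identity and often stand in for each other, went apart. Sox18 was at 5.55, 2.30, 2.38 and 4.38 FPKM in hippocampus and 7.92, 8.53, 9.99 and 9.61 in hypothalamus. It was the 1 endothelial gene called higher, by 1.16 ± 0.26 (limma adjusted p = 0.0013). Sox17 had 5.74, 4.37, 2.79 and 3.63 FPKM against 2.55, 2.04, 2.92 and 2.57, overlapping in hippocampus replicate 3 and hypothalamus replicate 3. The ratio of Sox18 to Sox17 was 0.967, 0.527, 0.853 and 1.21 in hippocampus and 3.11, 4.19, 3.42 and 3.74 in hypothalamus, apart in all libraries. Sox18 already lay apart and Sox17 leaned the other way, so this ratio adds no further support. Egfl7, a secreted endothelial factor, had values in hypothalamus alone, at 5.65, 5.18, 7.91 and 7.38 FPKM.

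Mural genes were higher in hypothalamus or not called, and none was lower. Of 11 tested, 6 were called higher (Myl9, Des, Cnn1, Tagln, Vtn and Notch3) and 5 were neither, against 13.3% of all genes called higher. For 7 of the 11 the libraries did not overlap, all with hypothalamus above, against 53.4% of all genes in either direction. The median difference was 1.57. It was 1.77 with the values as deposited and 1.498 without hippocampus replicates 3 and 4, where 7 genes were called. In that last setting 1605 of all 10567 genes were called higher.

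Contractile genes of smooth muscle carried the largest differences. Myl9, the regulatory myosin light chain of smooth muscle, was at 8.83, 12.4, 12.5 and 22.8 FPKM in hippocampus and 62.6, 126, 167 and 102 in hypothalamus (2.92 ± 0.40). Des, the intermediate filament desmin, was at 1.91, 0.904, 1.76 and 3.18 FPKM against 10.4, 21.9, 29.5 and 15.8 (2.76 ± 0.38), a 10.02-fold difference of the means. Cnn1, the actin-binding protein calponin 1, was low in hippocampus at 0.607, 0.0419, 0.359 and 0.876 FPKM and reached 4.39, 8.15, 12.9 and 5.42 in hypothalamus (2.504 ± 0.35). Between the highest hippocampal and the lowest hypothalamic library of each of these genes there was a wide gap. Tagln, encoding the actin cross-linking protein transgelin, was at 31.0, 14.9, 24.3 and 61.4 FPKM against 106, 155, 240 and 138, or 2.36 ± 0.48. Limma's adjusted p was 3.45e-05 for Myl9, 4.01e-05 for Des, 4.98e-05 for Cnn1 and 0.000434 for Tagln.

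The remaining contractile genes were not called on summed values. Lmod1, leiomodin 1, which starts actin filaments in smooth muscle, was at 3.17, 1.90, 3.19 and 5.68 FPKM in hippocampus and 4.66, 8.13, 9.65 and 7.61 in hypothalamus. Hippocampus replicate 4 lay above hypothalamus replicate 1, and the difference of 0.95 ± 0.31 was called, at 1.16 or 1.14, when either library was left out. Myh11, the smooth muscle myosin heavy chain, had values in hypothalamus alone, at 19.3, 23.9, 34.4 and 19.0 FPKM. Acta2, smooth muscle alpha actin, gave summed values of 43.9, 111, 158 and 256 FPKM in hippocampus and 70.3, 112, 177 and 95.6 in hypothalamus, a difference of -0.14 ± 0.60.

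**Figure D2:**
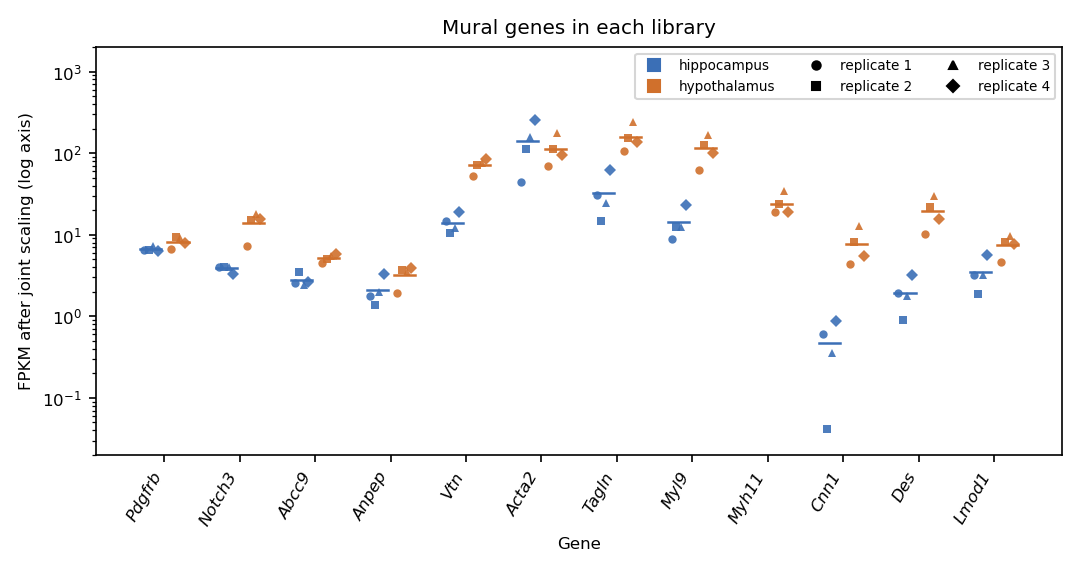
Level of the 12 mural genes in FPKM on a log axis, for each library (points, shape by replicate) with the mean of each tissue (bars); Acta2 and Myl9 are summed over their loci, and Myh11 has values in hypothalamus alone. Vtn, Tagln, Myl9, Cnn1, Des and Notch3 stand apart with hypothalamus above, while Pdgfrb differs little and the summed Acta2 overlaps.

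For Acta2 and Myl9 the sum mixed loci that the tables do not share. In the hippocampus table, Acta2 had a locus between Ankrd22 and Ch25h in table order, at 30.4, 27.6, 39.5 and 56.3 FPKM, and a further one between Stambpl1 and Fas, at 13.6, 83.9, 118 and 200. The hypothalamus table held only the former. Around the unmatched locus, 13 of 14 neighbours with a strand in RefSeq lie on the plus strand, whereas Acta2 lies on the minus strand, as do 19 of 21 neighbours of the matched locus. The protocol describes no step that marks strand, so reads of overlapping genes on opposite strands cannot be told apart. On the matched locus alone Acta2 was at 38.4 ± 12.9 FPKM in hippocampus against 114 ± 45.4 (SD, n = 4), and it was called higher in hypothalamus at 1.51 ± 0.35. This alternative was chosen after seeing the data.

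Myl9 also had a locus that the hypothalamus table did not hold. The matched locus of Myl9, between Tgif2 and Dlgap4, was at 5.41, 2.23, 5.33 and 7.04 FPKM in hippocampus, and an unmatched locus between Rab5if and Epb41l1 added 3.43, 10.2, 7.22 and 15.8. The strand of Myl9 is not listed, and of 20 neighbours of the unmatched locus with a strand, 10 lie on the plus strand and 10 on the minus strand. With the matched locus alone the difference of Myl9 was 4.25 ± 0.41, in place of 2.92. With both genes read this way, 7 of 11 mural genes were higher, 8 did not overlap and the median was again 1.57. The ratio of Tagln to the matched Acta2 locus was 1.02, 0.540, 0.616 and 1.09 in hippocampus and 1.51, 1.38, 1.36 and 1.44 in hypothalamus, again without overlap.

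**Figure D3:**
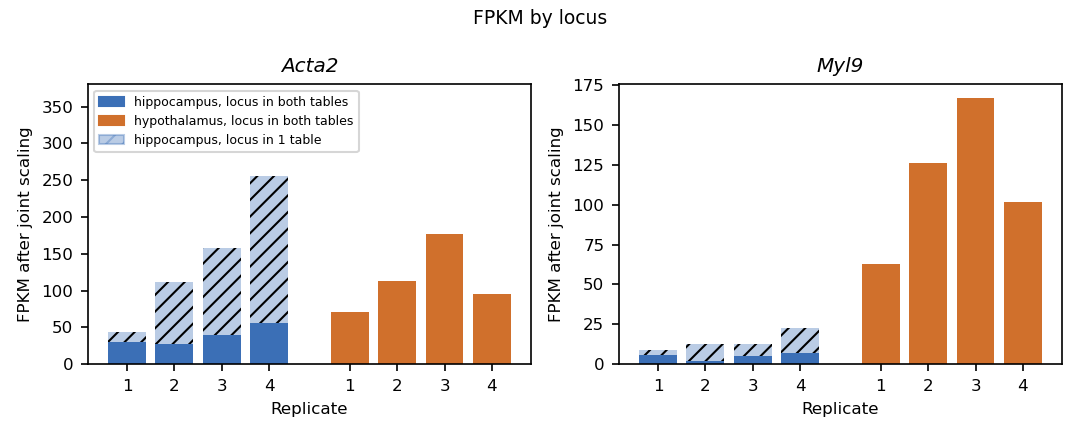
FPKM of Acta2 and Myl9 in each library, split by locus: solid bars are the locus found in both tables and hatched bars, stacked on them, the locus of the hippocampus table with no match in the other. The hatched part of Acta2 ranges from 13.6 to 200 over the hippocampal libraries and the solid part from 27.6 to 56.3.

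Promoters are shown for the contractile genes that RefSeq's table holds, since these genes were high or low together in the libraries. Many smooth muscle genes are known to be switched on through CArG boxes, which bind serum response factor. The 250 bases before the annotated start (GRCr8) were searched for CC, then 6 bases of which at least 5 are A or T, then GG. The reverse complement of such a box has the same form, so 1 search covers both strands. Capitals mark each box found. Acta2 lies at chr1:241172504-241172753 on the minus strand, Cnn1 at chr8:28908187-28908436 and Des at chr9:84299376-84299625, both on the plus strand.
Acta2: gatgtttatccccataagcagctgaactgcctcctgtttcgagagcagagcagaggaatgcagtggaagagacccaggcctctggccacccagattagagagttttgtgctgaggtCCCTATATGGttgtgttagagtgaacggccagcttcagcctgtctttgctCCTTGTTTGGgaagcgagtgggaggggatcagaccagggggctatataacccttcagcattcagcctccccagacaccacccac
Cnn1: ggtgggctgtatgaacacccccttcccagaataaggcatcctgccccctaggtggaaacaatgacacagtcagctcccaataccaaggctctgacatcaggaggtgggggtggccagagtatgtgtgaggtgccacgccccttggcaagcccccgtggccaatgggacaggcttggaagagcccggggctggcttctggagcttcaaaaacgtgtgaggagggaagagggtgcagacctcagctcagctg
Des: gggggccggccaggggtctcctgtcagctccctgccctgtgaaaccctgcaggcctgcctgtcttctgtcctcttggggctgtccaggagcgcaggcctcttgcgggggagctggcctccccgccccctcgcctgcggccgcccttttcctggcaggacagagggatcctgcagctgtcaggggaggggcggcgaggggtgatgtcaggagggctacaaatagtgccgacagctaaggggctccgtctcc
Acta2 held 2 boxes, starting 134 and 84 bases before the start, and Cnn1 and Des held none in this window. Of 33469 promoters of the table, 8.08% held such a box. Among the 19 vessel genes with a promoter there, 5 did: Acta2, and with 1 box each Kdr, Tie1, Pdgfb and Slco1a4. Of these, Pdgfb was lower in hypothalamus, Kdr and Tie1 were not called, and Acta2 was called on its matched locus. A match describes letters only, and no binding was measured.

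Receptors and pericyte genes were divided. Notch3, the Notch receptor of mural cells, was at 4.03, 4.07, 4.07 and 3.30 FPKM in hippocampus and 7.30, 15.2, 18.0 and 15.7 in hypothalamus (1.57 ± 0.28, limma adjusted p = 0.000278). Vtn, which encodes the matrix protein vitronectin and is a marker of brain pericytes, stood at 14.6, 10.4, 12.1 and 19.1 FPKM against 52.5, 72.0, 74.7 and 85.5. Its difference of 2.28 ± 0.23 had the lowest limma adjusted p of the 28 genes, 8.95e-06. Abcc9, the sulphonylurea receptor subunit of a pericyte potassium channel, did not overlap either, at 2.57, 3.53, 2.43 and 2.64 FPKM against 4.45, 5.10, 5.43 and 5.79, but at 0.71 ± 0.11 was under the limit.

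A widely used pericyte marker differed little. Pdgfrb, the PDGF-B receptor, was at 6.495, 6.53, 7.35 and 6.32 FPKM in hippocampus and 6.72, 9.30, 9.04 and 7.93 in hypothalamus (0.26 ± 0.10). Anpep, an aminopeptidase of the pericyte surface, was at 1.80, 1.39, 1.97 and 3.27 FPKM against 1.93, 3.70, 3.45 and 3.92, and overlapped. The ratio of Notch3 to Pdgfrb within a library was 0.621, 0.624, 0.554 and 0.522 in hippocampus and 1.09, 1.63, 2.00 and 1.98 in hypothalamus. Notch3 was thus the lower of the pair in every hippocampal library and the higher in every hypothalamic one. By median difference, the 5 receptor and pericyte genes were at 0.71 and the 6 contractile genes tested at 2.43.

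**Figure D4:**
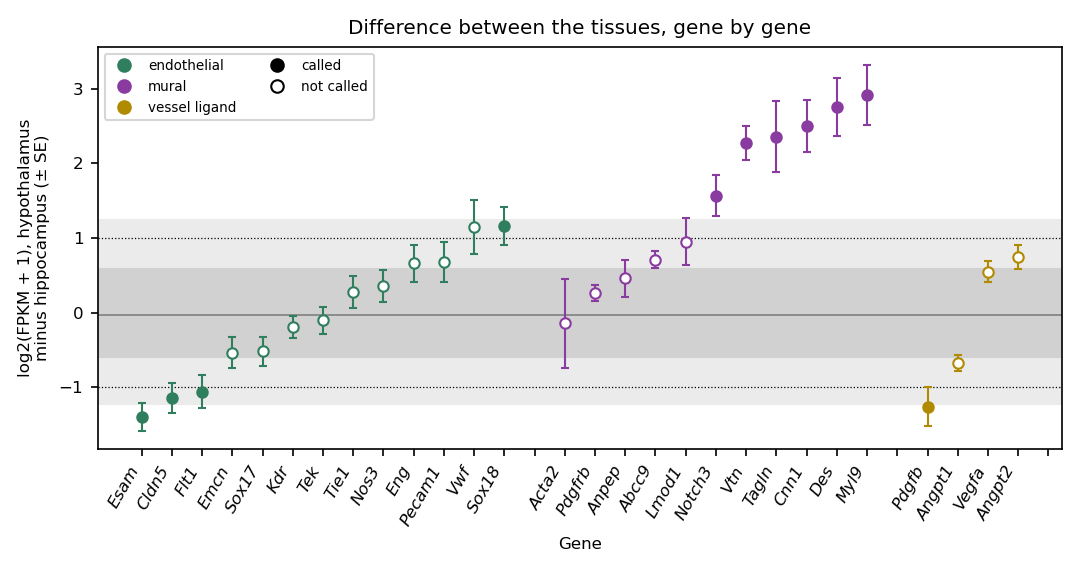
Difference of mean log2(FPKM + 1), hypothalamus minus hippocampus, for the 28 vessel genes tested (points, with bars of 1 SE), filled where called; shaded bands show the 25th to 75th and the 10th to 90th percentile of all 10554 genes and dotted lines the limit of 1. Endothelial genes spread to both sides, mural genes lie at or above the median of all genes apart from the summed Acta2, and of the ligands Pdgfb and Angpt1 lie below.

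The 4 ligands separated the tissues in every case, with 2 in each direction and 1 of them past the limit, against 53.4% of all genes without overlap and 13.4% called lower. Pdgfb, made by endothelium and also by neurons, was at 14.6, 11.8, 9.17 and 10.3 FPKM in hippocampus and 2.26, 5.30, 5.29 and 4.41 in hypothalamus, a difference of -1.26 ± 0.26 (limma adjusted p = 0.000876). It was no longer past the limit, at -0.93, without replicate 1 of both tissues. Within a library, Pdgfb over its receptor Pdgfrb was 2.25, 1.81, 1.25 and 1.62 in hippocampus and 0.336, 0.570, 0.585 and 0.556 in hypothalamus. The ligand exceeded the receptor in all hippocampal libraries and in no hypothalamic one. Pdgfb already lay apart and Pdgfrb leaned the other way, so this ratio restates those values. Vegfa, the main growth factor of endothelium, was at 17.3, 20.2, 18.3 and 16.7 FPKM against 21.7, 24.4, 32.4 and 30.6 (0.55 ± 0.14).

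The angiopoietins went in opposite directions. Angpt1, which activates TIE2 and is known to steady vessels, was at 3.41, 4.65, 3.87 and 3.42 FPKM in hippocampus and 2.24, 2.20, 1.66 and 2.02 in hypothalamus (-0.67 ± 0.11). Angpt2, which mostly opposes it, was at 3.23, 3.77, 4.37 and 4.65 FPKM against 5.73, 8.85, 6.77 and 8.43 (0.75 ± 0.16). Neither difference reached the limit of 1. The libraries of each gene already lay apart, in opposite directions, so their ratio restates those values and adds no further support. The ratio of Angpt2 to Angpt1 was 0.945, 0.812, 1.13 and 1.36 in hippocampus and 2.55, 4.02, 4.08 and 4.18 in hypothalamus. Angpt2 had 2 loci in both tables. The one between Xkr5 and Csmd1 was at 0.831, 0.675, 1.83 and 2.31 FPKM against 3.73, 6.13, 4.37 and 6.25, and the one between Agpat5 and Myom2 overlapped, at 2.34 to 3.10 and 2.00 to 2.72. The separation of summed Angpt2 thus lay in the former.

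Endothelial and mural genes also took different places within a library. The mean log2 level of the mural genes minus that of the endothelial genes was -0.60, -0.61, -0.40 and 0.01 in hippocampus and 0.99, 1.22, 1.32 and 1.11 in hypothalamus. Summed over the tested genes, endothelial FPKM ran from 176 to 215 in hippocampus and 111 to 173 in hypothalamus, and mural FPKM from 119 to 385 and 331 to 747. The mural sums and levels of hippocampus include the unmatched loci of Acta2 and Myl9, which the hypothalamus table lacks. In hippocampus replicate 4 those loci held 200 and 15.8 FPKM. The endothelial sums nearly touched, and the mean log2 endothelial level overlapped, at 3.28 to 3.40 in hippocampus and 2.92 to 3.55 in hypothalamus. Mural minus endothelial was positive in all hypothalamic libraries and, in hippocampus, near 0 in replicate 4 and negative in the others.

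Contractile genes moved together between libraries of 1 tissue. All 6 contractile genes tested were highest in replicate 4 in hippocampus, where 24.2% of all genes were highest, and all 6 were highest in replicate 3 in hypothalamus, where 18.8% were. All 11 mural genes and 10 of 13 endothelial genes were lowest in hypothalamus replicate 1, where 41.4% of all genes were lowest and 39.1% highest. Replicate 3 of hypothalamus was highest for 9 of 13 endothelial genes as well. The median SD between libraries (log2) was 0.51 in hippocampus and 0.57 in hypothalamus for contractile genes, 0.32 and 0.30 for endothelial genes, and 0.26 and 0.20 for all genes. Without hippocampus replicate 4 it was 0.32 in hippocampus for contractile genes and 0.25 for both endothelial and all genes. With hippocampus replicate 2 left out instead, it was 0.52 for contractile, 0.24 for endothelial and 0.17 for all genes. Without hypothalamus replicate 1 it was 0.42 there for contractile, 0.18 for endothelial, 0.16 for mural and 0.10 for all genes.

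Markers of the meninges were measured beside the mural genes and were higher in hypothalamus too. Of 12 meningeal fibroblast genes tested (of 16 listed), 7 were higher in hypothalamus and none was lower, against 13.3% and 13.4% of all genes, and the median difference was 2.29. Their summed level ran from 61.2 to 218 FPKM in hippocampus and from 363 to 939 in hypothalamus. Mgp, a matrix protein that binds calcium, was at 16.0, 7.49, 16.3 and 24.8 FPKM against 129, 182, 202 and 145, and Slc6a13, a GABA and taurine carrier of the leptomeninges, at 0.863, 1.43, 1.33 and 4.26 against 16.6, 35.6, 18.6 and 23.6. Igf2, a growth factor of meninges and choroid plexus, was at 5.91, 10.2, 80.9 and 79.6 FPKM in hippocampus and 74.2, 355, 210 and 336 in hypothalamus. Hippocampus replicate 4, the library highest for contractile genes, was highest for 8 of the 12. In hypothalamus, replicate 1 was lowest for 10 of 12, as it was for all 11 mural genes, while replicate 2, not 3, was highest for 11 of 12. Col1a2 was listed at 0 in all libraries. Whether the amount of meninges dissected with each tissue had a part in the mural differences was not tested.

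**Figure D5:**
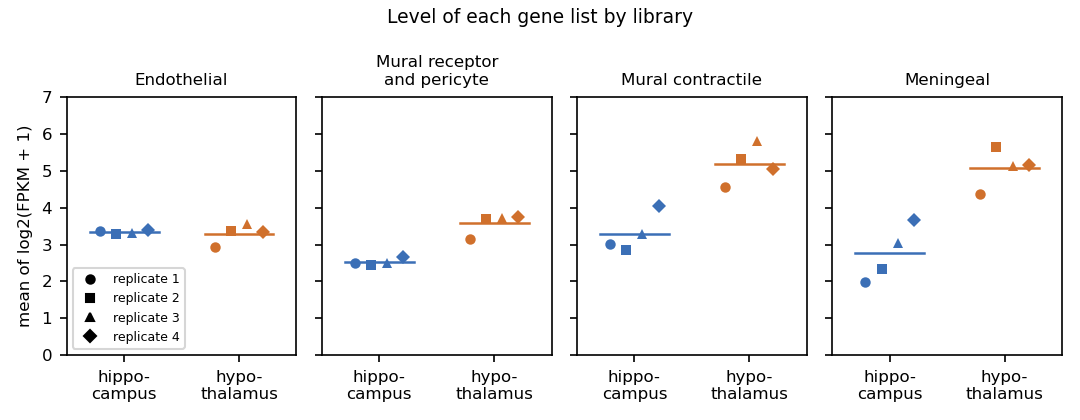
Mean of log2(FPKM + 1) over the tested genes of 4 lists, for each library (points, shape by replicate) with the mean of each tissue (bars). Endothelial levels overlap between the tissues, and receptor and pericyte, contractile and meningeal levels do not. Replicate 4 is the highest hippocampal library in all 4 lists, by little in the endothelial one (3.40 against 3.38 in replicate 1).

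Choroid plexus markers did not separate the tissues as the mural genes did. Of 7 tested (of 9 listed) none was called higher or lower, against 13.3% and 13.4% of all genes, and their sum was 60.4, 82.4, 6927 and 5166 FPKM in hippocampus against 35.7 to 120 in hypothalamus, with Otx2 listed at 0 in all libraries. Kcnj13, a potassium channel of its epithelium, was at 20.2, 41.0, 88.1 and 56.9 FPKM in hippocampus and 18.7 to 33.1 in hypothalamus. Within hippocampus, the mean log2 level of mural genes was also highest in replicates 3 and 4, at 2.92 and 3.41 against 2.78 and 2.66. For endothelial genes it was 3.33 and 3.40 against 3.38 and 3.28. Whether choroid plexus in the tissue had a part in this was not tested. Without the 2 libraries rich in choroid plexus RNA, 7 mural genes and 2 endothelial genes were higher and 3 endothelial genes lower. Over all 10567 genes tested in that setting, 1605 were higher and 1545 lower, in place of 1402 and 1414 with all libraries.

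Other genes of vessel signalling were looked up from a wider list. Of 28 tested (of 36 listed), hypothalamus was higher for 9, hippocampus for 1 and neither for 18, against 13.3% and 13.4% of all genes, and the median difference was 0.56. Heyl, a transcription factor downstream of Notch3 in mural cells, was at 3.74, 4.09, 3.82 and 4.45 FPKM in hippocampus and 11.3, 24.7, 25.1 and 23.7 in hypothalamus (2.08 ± 0.27). It separated the tissues as Notch3 did, with replicate 1 again the lowest hypothalamic library. Pgf, placental growth factor, a ligand of the receptor encoded by Flt1, was at 0.966 ± 0.451 FPKM against 6.02 ± 1.498 (SD, n = 4), while Flt1 was lower. Nrp1, a VEGF co-receptor also made by neurons and the 1 gene of the list called lower, is named after its values were seen, at 16.8 ± 5.18 against 6.39 ± 0.861 FPKM. S1pr1, the sphingosine-1-phosphate receptor, was at 52.4 ± 6.91 and 48.5 ± 7.27 FPKM and overlapped, and Ednrb, an endothelin receptor that astrocytes share, was higher at 68.8 ± 8.63 against 30.9 ± 6.29. Heyl and Ednrb had 2 loci in the hippocampus table and 1 in the other.

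Of 16 barrier genes tested (of 17 listed), 14 were neither, 1 was higher and 1 lower, against 13.3% and 13.4% of all genes (median difference 0.04). The libraries did not overlap for 3 of the 16, against 53.4% of all genes. Slc2a1, the glucose transporter of the barrier, was at 136, 105, 155 and 157 FPKM in hippocampus and 83.2, 96.8, 120 and 106 in hypothalamus, overlapping. Slc7a5, a carrier of large neutral amino acids, was at 38.5 ± 5.14 and 38.8 ± 7.50 FPKM. Abcg2, an efflux pump of brain endothelium, was lower in hypothalamus, at 5.77 ± 1.79 against 13.9 ± 3.69 FPKM (-1.14 ± 0.27), as Cldn5 and Esam were. Slc38a5, a glutamine carrier of brain endothelium, was higher, at 4.52 ± 0.874 against 1.08 ± 0.427.

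Of 23 further mural genes tested (of 24 listed), 12 were neither, 10 were higher and 1 lower, against 13.3% and 13.4% of all genes (median difference 0.81). Smtn, the smooth muscle protein smoothelin, was at 1.43, 0.856, 1.09 and 1.90 FPKM in hippocampus and 58.6, 55.7, 85.9 and 57.4 in hypothalamus, and Flna, the actin cross-linker filamin A, at 7.61, 5.39, 8.72 and 13.3 against 53.0, 97.6, 115 and 81.5. Flna was highest in the same libraries as the contractile members, replicate 4 of hippocampus and replicate 3 of hypothalamus, and Smtn likewise. In hypothalamus, however, Smtn was lowest in replicate 2, not in replicate 1 as the contractile members were. Ppp1r14a, an inhibitor of myosin phosphatase that myelinating cells also make, was higher at 98.9 ± 13.8 against 34.4 ± 11.8 FPKM. Tpm1, a tropomyosin shared with many cell types, was at 77.9 ± 8.24 and 68.4 ± 10.2 FPKM and was not called. Srf, which encodes serum response factor and is named after its values were seen, was the 1 gene of this list that was lower, at 9.96 ± 2.57 against 20.9 ± 3.32 FPKM (-1.02 ± 0.23).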

How the data were processed

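The authors deposited FPKM values in 1 table per tissue, with a status beside each value that was OK for all vessel genes. Per the submitters' processing notes, TopHat, TopHat2, Bowtie, Bowtie2, Cufflinks, Cuffdiff and the rat build rn5 were used, with versions and options not given in the sources used here. Per the labels' protocols, RNA was selected for poly-A tails. FPKM of all loci with 1 symbol were added up, divided by median-of-ratios factors from 15892 shared symbols (0.892 to 0.950 for hippocampus, 1.07 to 1.12 for hypothalamus), filtered at a mean of 1 FPKM and compared as log2(FPKM + 1). Loci were matched between tables by 12 neighbours in table order on each side. Summing touched symbols with several loci, 10.7% of those of hippocampus and 9.1% of hypothalamus.

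A call needed a difference of at least 1 and no overlap of 4 against 4 libraries, since tissue and table coincide. The alternative was limma 3.58.1 (R 4.3.3) with a mean-variance trend and Benjamini-Hochberg adjustment over 10554 genes. The steps were tested on simulated data. Other work used Python 3.11.15, pandas 2.3.3, numpy 2.4.6 and matplotlib 3.10.9. Other alternatives changed the scaling, the pseudocount (0.1), the filter (none, or 5 FPKM), the loci and the libraries. Absolute depth is unknown. Low values (under 0.05 FPKM) fell on common steps in 89.3% to 94.4% of loci for pairs among replicates 2 to 4. For pairs with replicate 1 they did so in 9.02% to 12.8%. Replicate 1 of both tissues thus mostly did not share the steps of the other libraries, and the labels do not say why. Correlations of log2 values between libraries of a tissue were 0.932 to 0.976 in hippocampus and 0.954 to 0.990 in hypothalamus, and no 2 libraries were identical.

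The vessel genes and all lists were chosen with earlier results of these data known. All 32 genes are named. From each other list the text names the 2 called genes with the largest difference and the 2 with the highest mean level, and others as marked. Promoters and strands are from RefSeq (GRCr8), whose coordinates were not mixed with those of the authors' build.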

Additional observations from a re-analysis of the deposited data

Results flagged for a closer look

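Among 64 groups of 4 libraries (each vessel gene, and each list's mean level, in each tissue), 4 had 1 library far from the other 3, with a gap to its nearest neighbour that filled more of the group's range than Dixon's critical value allows. Chance alone marks about 1 in 20 groups. In hypothalamus replicate 1, Tie1 was at 5.46 FPKM, below 9.002 to 9.20 in the others. The mean log2 level of the 4 ligands in that library was 2.66, against 3.02 to 3.07. In hippocampus replicate 4, Nos3 was at 3.73 FPKM, above 3.08 to 3.14, and Notch3 was at 3.30, below 4.03 to 4.07.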

How the results depend on the processing

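Of the 28 vessel genes tested, 22 kept their call in each of the 17 settings that gave them a value, and the 6 that did not were Cldn5, Flt1, Vwf, Lmod1, Pdgfb and Acta2. The filter at 5 FPKM gave no value for Abcc9, Angpt1, Anpep, Cnn1, Kdr, Nos3 and Sox17, and the limit to 1 locus in each table none for Acta2, Angpt2 and Myl9. With the matched loci alone Acta2 reversed, to 1.51. With values as deposited, 1 endothelial gene was lower in place of 3 (Cldn5 at -0.92, Flt1 at -0.85), and 2 genes of the other lists (vessel signalling, barrier, further mural, meningeal, macrophage, blood, choroid plexus and astrocyte) in place of 4. In the same setting 1018 of all genes were lower, in place of 1414. Endothelial genes called higher were 2 in place of 1 without replicate 1 of both tissues, without hippocampus replicates 3 and 4, and in limma without and with the replicate block. Over all genes, 1601, 1605, 1455 and 1459 were called higher in these settings, in place of 1402. Leaving out 1 library gave 1 to 2 endothelial genes called higher, with 2 when hippocampus replicate 4 or hypothalamus replicate 1 was left out. Of all genes, 1513 and 1546 were higher without these libraries. Without replicate 1 of both tissues 0 ligands were lower, in place of 1, while 1518 of all genes were, in place of 1414. The ligand median of -0.06 was 0.55 with a filter at 5 FPKM and -0.70 with 1 locus in each table, where fewer of the 4 genes remain. With that filter 22 genes of the other lists were higher, in place of 34. Fewer genes were tested with it, and over all genes 1018 of 8065 were higher, in place of 1402 of 10554.

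The median SD of mural genes in hippocampus was 0.57 with a pseudocount of 0.1, in place of 0.36. In hypothalamus, leaving out 1 library gave medians of 0.18 to 0.36 for endothelial and 0.16 to 0.60 for mural genes, in place of 0.30 and 0.49, the lowest without replicate 1; without replicate 1 of both tissues they were 0.18 and 0.16. The endothelial one in hippocampus was 0.18 without replicates 3 and 4 there, in place of 0.32. Mural genes called higher stayed at 6 or 7 in all settings that kept all 11 genes.

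Same-numbered libraries of the tissues did not deviate together (r from -0.08 to 0.14 over genes, and 2 of 4 hippocampal libraries correlated best with their own number), so the numbers are not shown to pair them. With the replicate block limma called 1459 genes higher and 1439 lower, against 1455 and 1431 without it, and 2, 6 and 0 endothelial, mural and ligand genes higher and 3, 0 and 1 lower, as without it. Low genes such as Cnn1 in hippocampus rest on few reads, and no interval can be given without counts.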

Other observations

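Cells that lie around brain vessels were read from lists of their own. Of 5 perivascular macrophage genes tested (of 7 listed), 4 were higher in hypothalamus and none was lower, against 13.3% and 13.4% of all genes, and the median difference was 1.41. Pf4, a chemokine that these macrophages and platelets make, was at 0.318, 1.12, 1.51 and 0.789 FPKM in hippocampus and 23.0, 13.3, 8.86 and 10.4 in hypothalamus. Cd68, a lysosomal protein of phagocytes, was at 0.794 ± 0.173 against 6.87 ± 1.93 FPKM (SD, n = 4). Unlike the mural genes, Pf4 was highest in replicate 1 of hypothalamus, and so was F13a1. Cd68, Lyve1 and Mrc1 were lowest in that library, as the mural genes were, so the list had no common order over the hypothalamic libraries. F13a1, Lyve1 and Mrc1 are named after their values were seen.

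Astrocytes, whose endfeet cover the vessel wall, had 3 of 7 tested genes (of 8 listed) higher and 1 lower, against 13.3% and 13.4% of all genes, and a median difference of 0.60. Gjb6, a connexin of astrocytes, was at 96.7 ± 21.2 FPKM in hypothalamus against 27.9 ± 3.94. Slc1a2, the main glutamate transporter, was lower, at 249 ± 25.8 against 762 ± 252. Gfap, the astrocyte intermediate filament, was not called, at 479 ± 80.5 against 314 ± 47.6. Of 8 blood cell genes listed, 1 was tested: Alas2, a haem synthesis enzyme of red cells, was at 3.19, 3.20, 1.69 and 5.52 FPKM in hippocampus and 18.5, 13.7, 3.23 and 6.65 in hypothalamus, and overlapped.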
